A study of Mus musculus with 6 samples.

Results

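The genes described here build and start the replicative DNA helicase: the MCM helicase subunits Mcm2, Mcm3, Mcm4, Mcm5, Mcm6 and Mcm7, the helicase loading factors Cdc6 and Cdt1, and the helicase activating factors Mcm10 and Cdc45. They were chosen by role, as MCM helicase and origin licensing genes, with earlier results of these data known. Matching by mouse symbol to the gene identifiers of the count table gave 10 genes of 55487. The samples were labelled as cultured primary endothelial cells (ECs) enriched for CD31 from the skin of C57BL/6 mice, with no genetic change given in the labels for either group. Cells pooled from 4 to 6 mice aged 2 to 3 months were kept for 48 hours in normal glucose (5 mmol/L, 3 samples) or in high glucose (20 mmol/L, 3 samples). The pooling, the cultured state of the cells and the single time point limit what the groups represent. The transcripts matched this label poorly: Pecam1, the gene for CD31, was near 0 in every sample and collagen transcripts were abundant. The summed level of the fibroblast markers checked was far above that of the endothelial markers, with values given below. The study's captions count the RNA-seq replicates by mice rather than by repeated cultures, but neither they nor the labels say whether each sample had its own pool of mice, so P values measure the spread between these samples, which may be technical.

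Before a cell copies its DNA, each replication origin is licensed: the origin recognition complex and Cdc6, with Cdt1, place the ring formed by MCM2 to MCM7 around the DNA as an inactive double hexamer. In S phase the kinases CDK and DDK trigger the recruitment of CDC45 and the GINS complex, which turn the ring into the active CMG helicase, and MCM10 is needed for that helicase to open the DNA. In mammals many of these genes are known E2F targets whose transcripts rise as cells enter the cycle and are low in quiescent cells.

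All 10 genes had lower transcript levels in high glucose. Each was called lower (edgeR quasi-likelihood test, Benjamini-Hochberg adjusted P value under 0.05 over the 19015 genes tested), where 14.5% of all genes tested were called lower and 16.9% higher. In each of the 10, every high glucose sample lay below every normal glucose sample, a pattern that 21.3% of all genes tested had. The median log2 fold change of the 10 genes was -0.68, with a range from -1.01 for Mcm10 to -0.30 for Mcm4, beside 0.01 over all genes tested and -0.50 over all genes called lower. Their summed level, as CPM (counts scaled by library size and TMM factor), ran from 169.2 to 170.3 in normal glucose and from 116.9 to 117.9 in high glucose. Because these were bulk samples, fewer cells of a cycling kind and less RNA per cell cannot be told apart.

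**Figure D1:**
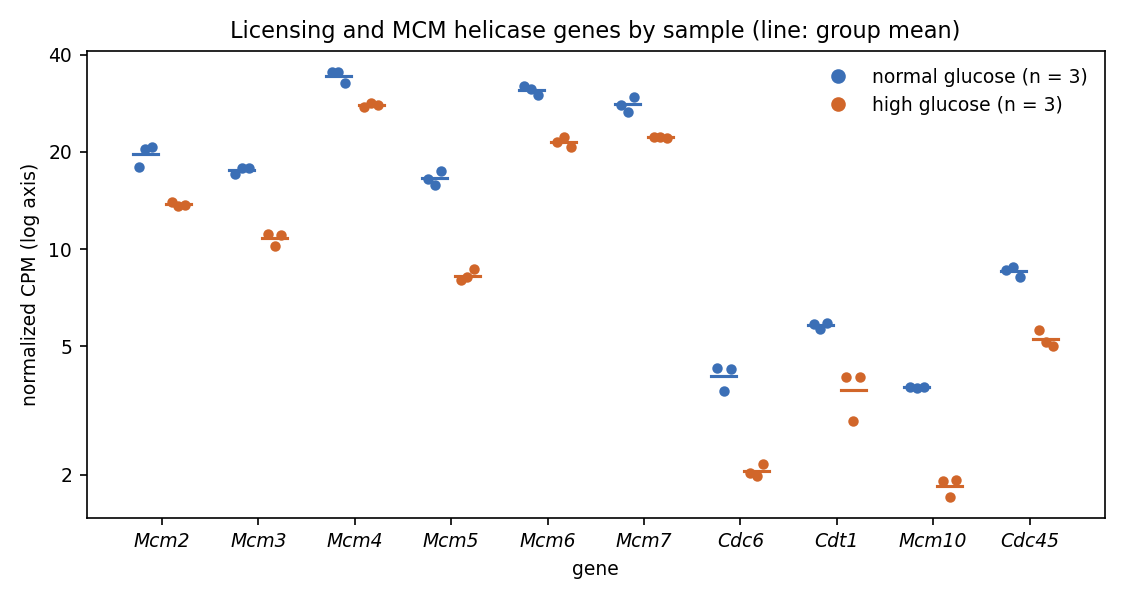
Normalized CPM (log axis) of the 10 genes in each sample, with 3 normal glucose and 3 high glucose samples per gene as points and a line at each group mean. The groups did not overlap for any of the 10 genes, and the gap was narrowest in proportion for Mcm4 and Mcm7.

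The libraries held 120192466 to 146881356 counts each, so the 10 genes together received 13590 to 24007 counts per sample and the least covered, Mcm10, received 199 to 528. Of the endothelial markers checked, Flt1, a VEGF receptor, lay at 52.9 to 56.6 CPM in normal glucose and 38.3 to 38.6 CPM in high glucose, and Cdh5, which encodes VE-cadherin, at 1.71 to 1.85 CPM and 0.783 to 0.927 CPM. Pecam1, which encodes CD31, was near 0, at 0.0846 to 0.152 CPM and 0.0634 to 0.134 CPM, and Tie1, Emcn and Cldn5 had 0 to 9 counts per sample. The 12 endothelial markers summed to 73.8 to 77.0 CPM in normal glucose and 57.0 to 57.6 CPM in high glucose, a sum made up mostly of Flt1. Of the 9 tested, 3 were called lower (Flt1, Cdh5 and Egfl7) and 2 higher, Tek with a log2 fold change of 0.66 (edgeR adjusted P value 0.0022) and Erg, at 2 to 15 counts per sample, with one of 1.45 (edgeR adjusted P value 0.045). Of all genes tested, 14.5% were called lower and 16.9% higher, which is the background for each marker list. The 10 fibroblast markers, led by collagen genes, summed to 38170 to 41320 CPM in normal glucose and 70270 to 75230 CPM in high glucose, with 8 called higher and 2 lower. The 6 pericyte and smooth muscle markers summed to 904 to 990 CPM and 866 to 925 CPM, mostly Pdgfrb and Acta2, with 3 called lower (Cspg4, Des and Acta2) and Rgs5 called higher. The 3 keratinocyte markers summed to 2.06 to 2.88 CPM and 2.21 to 2.45 CPM, mostly Krt10, which was not called. Krt5 was called higher, with 2 counts in each normal glucose sample and 12 to 23 in high glucose, and Krt14, at 0 to 2 and 9 to 35 counts, was not tested. The 4 macrophage markers summed to 6.63 to 7.72 CPM and 4.11 to 4.84 CPM, with Cd68 and Csf1r called lower. Ptprc had 16, 0 and 0 counts and Adgre1 had 0, 3 and 0 counts in normal glucose. Both were at 0 in all high glucose samples, and neither was tested. The part of these shifts in the licensing results was not tested.

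Within the helicase ring, Mcm5 fell furthest. Mcm5 (chr8:75109569-75128439, plus strand, GRCm38), which encodes a subunit at the gate through which the ring opens onto DNA, had 16.4, 15.8 and 17.5 CPM in normal glucose and 8.0, 8.18 and 8.66 CPM in high glucose. The highest high glucose sample thus lay well below the lowest normal glucose sample, and the group means of 16.6 ± 0.837 and 8.28 ± 0.340 CPM (SD, n = 3 each) differed by 50.1%. Its log2 fold change was -1.0 (SE 0.069, edgeR adjusted P value 2.8e-06). MCM2 forms the other side of the same gate. Mcm2 (chr6:88883474-88898780, minus strand) had 17.9, 20.5 and 20.8 CPM in normal glucose and 14.0, 13.6 and 13.7 CPM in high glucose. The first normal glucose sample was the lowest of its group and still above all high glucose samples. The log2 fold change of Mcm2 was -0.52 (SE 0.069, edgeR adjusted P value 0.00028), and its 95% interval, -0.67 to -0.36, did not meet that of Mcm5, -1.16 to -0.85.

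Mcm3 (chr1:20802968-20820312, minus strand), the neighbour of MCM5 in the ring, had 17.1, 17.8 and 17.8 CPM in normal glucose and 11.2, 10.2 and 11.1 CPM in high glucose. The 3 samples of each group lay close together, and Mcm3 had a log2 fold change of -0.70 (SE 0.063, edgeR adjusted P value 1.8e-05). Mcm6 (chr1:128331590-128359664, minus strand), whose product binds CDT1 during loading, had 32.0, 31.4 and 30.1 CPM in normal glucose and 21.4, 22.3 and 20.7 CPM in high glucose. The fall from 31.2 ± 0.983 to 21.5 ± 0.828 CPM (SD, n = 3 each) was a log2 fold change of -0.54 (SE 0.055, edgeR adjusted P value 4.1e-05).

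Mcm4 and Mcm7 changed least. Together with MCM6, their products form a stable subassembly of the ring that has helicase activity of its own in vitro. Mcm4 (chr16:15623897-15637400, minus strand) had 35.2, 35.4 and 32.6 CPM in normal glucose and 27.6, 28.4 and 27.9 CPM in high glucose. Its log2 fold change was -0.30 (SE 0.054, edgeR adjusted P value 0.0019). Mcm7 (chr5:138164583-138172422, minus strand) had 28.0, 26.6 and 29.5 CPM in normal glucose and 22.2, 22.3 and 22.1 CPM in high glucose. That of Mcm7 was -0.34 (SE 0.055, edgeR adjusted P value 0.001). The falls of 18.7% and 20.9% were separated from 0 but small beside that of Mcm5. Of all genes tested, 18.8% had a larger fall than Mcm4.

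**Figure D2:**
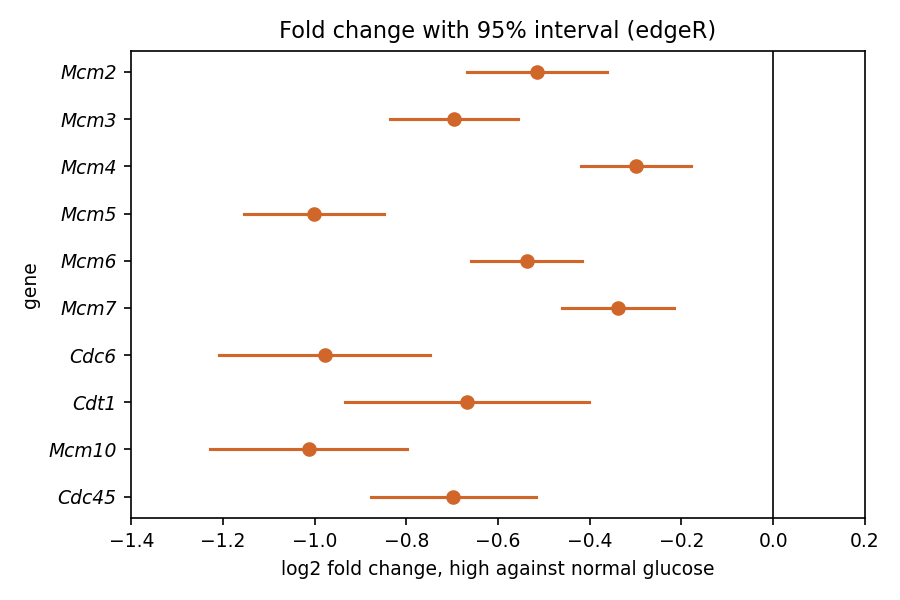
Log2 fold change of each gene, high against normal glucose, with its 95% interval from the edgeR fit (points and horizontal bars, 3 samples a group). All 10 intervals lay below 0, and Mcm10, Mcm5 and Cdc6 sat near -1 while Mcm4 and Mcm7 sat near -0.3.

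The loading factors fell as well. Cdc6 (chr11:98907801-98923940, plus strand), the ATPase that joins the origin recognition complex to recruit the ring, had 4.28, 3.65 and 4.24 CPM in normal glucose and 2.02, 1.99 and 2.16 CPM in high glucose. All high glucose samples were well under the lowest normal glucose sample, and the log2 fold change of Cdc6 was -0.98 (SE 0.10, edgeR adjusted P value 5.6e-05). Cdt1 (chr8:122568015-122573554, plus strand), which escorts the ring to the origin, had 5.87, 5.65 and 5.91 CPM in normal glucose and 4.00, 2.94 and 4.01 CPM in high glucose. The second high glucose sample stood below the other two, and Cdt1 had the widest interval of the 10 genes, -0.93 to -0.40 around a log2 fold change of -0.67 (edgeR adjusted P value 0.0019). Without that sample the log2 fold change was -0.55 (edgeR adjusted P value 0.0035).

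The factors that act after loading were lower too. Mcm10 (chr2:4989714-5012791, minus strand), which despite its name is no ring subunit, had 3.75, 3.72 and 3.75 CPM in normal glucose and 1.92, 1.71 and 1.92 CPM in high glucose. The normal glucose samples of Mcm10 were almost equal, and its log2 fold change of -1.01 (SE 0.097, edgeR adjusted P value 2.7e-05) was the lowest of the 10, with 3.29% of all genes tested falling further. Cdc45 (chr16:18780447-18811987, minus strand), the core helicase cofactor, had 8.63, 8.78 and 8.21 CPM in normal glucose and 5.63, 5.15 and 5.02 CPM in high glucose. It changed by -0.70 on the log2 scale (SE 0.081, edgeR adjusted P value 0.00011), the same size as Mcm3.

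Stretches of the promoters are shown for Mcm6, Mcm7, Mcm5 and Cdc6, where E2F-type words stood in the promoter window. The windows of Mcm3 and Cdt1 also held such words. They are not shown because a match lay further past the start than the stretches reach (position 38 for Mcm3 and 32 for Cdt1). RefSeq promoter windows (GRCm38.p6, 250 bases before to 50 after a start) were found for 9 of the 10 genes, in 10 windows, and not for Mcm4. The RefSeq starts can differ from the ends of the gene positions given above, which came from GENCODE. By those positions the stretches of Cdc6 and Mcm7 lie inside the gene, and those of Mcm6 and Mcm5 lie upstream of it. The words searched on both strands were TTTCCCGC, TTTCGCGC, TTTGCCGC and TTTGGCGC. They stood in windows of 6 genes (Mcm3, Mcm5, Mcm6, Mcm7, Cdc6 and Cdt1), while 2.27% of all 32851 promoter windows held one. In the stretches below, read 5′ to 3′ along each gene's strand, capitals mark the matched letters, on either strand, and matches that overlap run together.
Mcm6, chr1:128359705-128359855, minus strand: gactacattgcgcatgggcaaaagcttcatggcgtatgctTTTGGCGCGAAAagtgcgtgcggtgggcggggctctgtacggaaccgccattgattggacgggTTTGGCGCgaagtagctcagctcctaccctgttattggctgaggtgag
Mcm7, chr5:138171854-138172088, minus strand: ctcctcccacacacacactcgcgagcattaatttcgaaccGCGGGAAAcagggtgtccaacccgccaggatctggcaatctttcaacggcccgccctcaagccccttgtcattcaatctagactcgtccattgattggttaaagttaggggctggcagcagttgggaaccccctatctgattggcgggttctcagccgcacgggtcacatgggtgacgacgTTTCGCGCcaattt
Mcm5, chr8:75109316-75109407, plus strand: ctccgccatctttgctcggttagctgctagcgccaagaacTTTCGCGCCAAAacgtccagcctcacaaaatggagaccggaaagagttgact
Cdc6, chr11:98907973-98908060, plus strand: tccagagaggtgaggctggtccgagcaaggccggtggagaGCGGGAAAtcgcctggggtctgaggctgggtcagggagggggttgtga

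The Mcm6 stretch held 3 matches, those of Mcm7 and Mcm5 held 2 each and that of Cdc6 held 1. CCAAT, the NF-Y box, stood in windows of 7 genes (Mcm2, Mcm3, Mcm5, Mcm6, Mcm7, Mcm10 and Cdc45) and in 37.4% of all windows. TTTGAA, the CHR word of late cell cycle promoters, stood in those of Mcm2 and Cdc45 and in 17.9% of all windows. Genes with an E2F-type word included both Mcm5, with a log2 fold change of -1.0, and Mcm7, with -0.34. A match describes letters in the window and does not show that a factor was bound.

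Per length of union exon, the 6 ring subunits lay above Cdc45, Cdt1, Cdc6 and Mcm10 in both groups. In normal glucose Mcm4 came first at 9.58 ± 0.434 CPM per kb of union exon (SD, n = 3), followed by Mcm6 at 6.68 ± 0.211 and Mcm7 at 6.34 ± 0.327 CPM per kb, whose ranges overlapped. Mcm3, Mcm5 and Mcm2 followed at 4.68, 4.15 and 2.83 CPM per kb, then Cdc45 at 2.44 and Cdt1 at 1.85. Cdc6 and Mcm10 were the least abundant, at 0.776 and 0.486 CPM per kb. In high glucose, by union exon length, Mcm7, at 5.02 ± 0.0225 CPM per kb, passed Mcm6, at 4.60 ± 0.177, with no overlap between them. Mcm5, at 2.07 ± 0.0849 CPM per kb, then overlapped Mcm2, at 1.98 ± 0.0295. The place of Mcm2 depends on the length used: its exons span 6956 bp in union but 3494 bp in the longest transcript. By the latter Mcm2 came ahead of Mcm3 and Mcm5 in both groups, while Cdc45 (2.46 CPM per kb) came just ahead of Mcm5 (2.45 CPM per kb) in high glucose. The order of Mcm6 and Mcm7 depends on the length too. By longest transcript Mcm7 already lay above Mcm6 in normal glucose, at 9.47 against 7.15 CPM per kb. In high glucose the values were 7.49 and 4.93 CPM per kb, so neither passed the other.

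In these samples the make-up of the ring's transcripts also differed between the groups, by more than the spread of the samples for some subunits. The shares add up to the whole, so a rise in some forces a fall in others, and the subunits are not separate observations. As a share of the length-scaled counts of Mcm2 to Mcm7, Mcm4 was 28.7%, 28.8% and 26.5% in normal glucose against 31.6%, 32.4% and 32.0% in high glucose, a difference of 4.03 points. Mcm7 was 2.09 points higher, at 18.5% ± 0.939 and 20.6% ± 0.0538 (SD, n = 3 each). The share of Mcm5 was 12.01%, 11.6% and 12.8% in normal glucose and 8.25%, 8.37% and 8.93% under high glucose, a difference of -3.61 points, and Mcm3 differed by -1.79 points. For these 4 subunits the groups did not overlap. The share of Mcm6 differed by -0.596 points and that of Mcm2 by -0.129 points, both within the spread of their samples. With 3 samples a group the two-sided exact permutation test cannot go below 0.1, which it gave for Mcm3, Mcm4, Mcm5 and Mcm7 (0.15 after Benjamini-Hochberg adjustment over the 6 shares), and it gave 0.4 for Mcm6 and 0.9 for Mcm2.

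**Figure D3:**
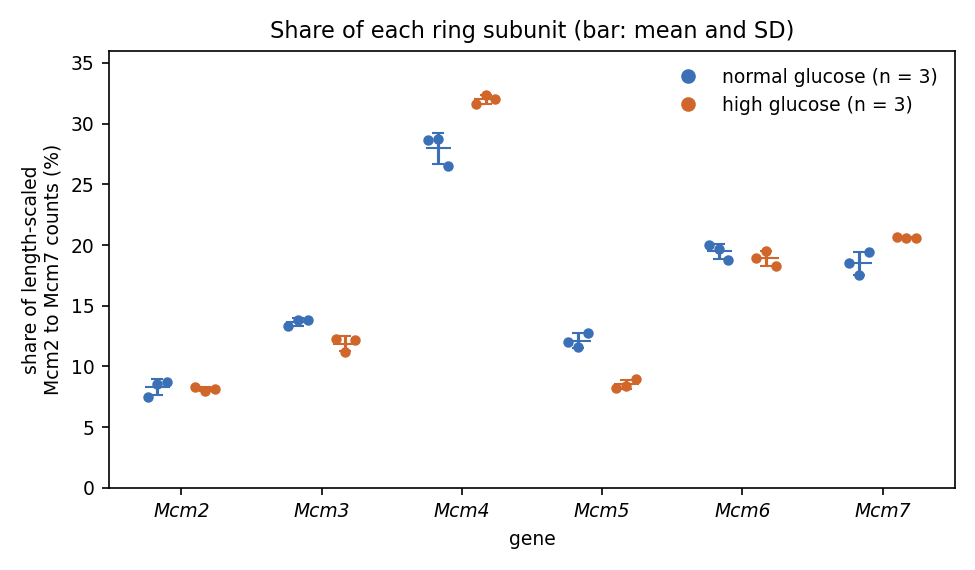
Share of each subunit gene in the length-scaled counts of Mcm2 to Mcm7 (percent), by sample, with the mean and SD of the 3 normal glucose and 3 high glucose samples. The high glucose samples lay above the normal glucose samples for Mcm4 and Mcm7 and below them for Mcm5 and Mcm3, without overlap.

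Some of these genes lie back to back with, or over, another gene. Prkdc, which encodes the catalytic subunit of the DNA repair kinase DNA-PK, starts 466 bp from Mcm4 on the opposite strand and moved the other way. It had 11.1, 12.3 and 11.5 CPM in normal glucose and 17.3, 18.1 and 17.5 CPM in high glucose. Prkdc thus rose, with a log2 fold change of 0.60 (SE 0.063, edgeR adjusted P value 5.7e-05). Per kb, the ratio of Mcm4 to Prkdc had a mean of 10.9 ± 0.688 under normal and 5.82 ± 0.0452 under high glucose, a ratio chosen after its values were seen and not tested. Ap4m1, an adaptor complex subunit, starts 160 bp from Mcm7, and Ufd1, a protein degradation cofactor, starts 140 bp from Cdc45. Neither passed the test, with log2 fold changes of 0.03 (edgeR adjusted P value 0.73) and -0.10 (edgeR adjusted P value 0.28).

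The counting was not stated to use strand, so reads from exons shared on opposite strands cannot be assigned with certainty. Mcm7 shares 321 bp of exon with Ap4m1 and 64 bp with Cops6, and Cdc45 shares 209 bp with Ufd1. Cops6, a COP9 signalosome subunit, changed by -0.17 on the log2 scale (edgeR adjusted P value 0.03), a call lost without normal glucose replicate 3 (adjusted P value 0.088), high glucose replicate 1 (0.094) or high glucose replicate 2 (0.083). The microRNA genes Mir25, Mir93 and Mir106b, which lie within Mcm7, had 0 to 3 counts per sample in these poly(A) libraries and were not tested.

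Of 9 genes of origin recognition and loading, 1 was called lower and 1 higher, beside 14.5% and 16.9% of all genes tested, and their median log2 fold change was 0.03. Orc1, the subunit whose level rises and falls through the cell cycle, had 2.11, 2.01 and 1.95 CPM in normal glucose and 1.04, 0.955 and 1.0 CPM in high glucose. The log2 fold change of Orc1 was -1.02 (edgeR adjusted P value 7.6e-05). Mcmbp, which encodes a chaperone of MCM proteins, rose with a log2 fold change of 0.21 (edgeR adjusted P value 0.029). That call was lost without normal glucose replicate 1 (adjusted P value 0.063) or without high glucose replicate 1 (0.078), 2 (0.088) or 3 (0.18), and the log2 fold change was 0.09 under scaling by library size alone. Orc4 had a log2 fold change of -0.19 (edgeR adjusted P value 0.063) and passed the threshold in 8 of the 18 alternatives. On leaving out a sample, its edgeR adjusted P value ran from 0.014 (without normal glucose replicate 3) to 0.17 (without high glucose replicate 1). Orc6 had a log2 fold change of -0.09. Among the MCM relatives outside the ring, Mcm8, a recombination helicase, fell with a log2 fold change of -0.37 (edgeR adjusted P value 0.03), a call lost without normal glucose replicate 1 (0.057), high glucose replicate 1 (0.076) or high glucose replicate 3 (0.11). Its partner Mcm9 had 0.14 (edgeR adjusted P value 0.25), and Mcmdc2, with 0 to 5 counts per sample, was not tested.

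Among 7 genes that restrain licensing or turn its factors over, 3 were called lower, beside 14.5% of all genes tested, and the median log2 fold change was -0.14. The largest change, -0.99, was in Ccnf (edgeR adjusted P value 6.5e-06), which encodes cyclin F, a ubiquitin ligase subunit known to target CDC6. Gmnn, which encodes geminin, the inhibitor of CDT1, had 6.88, 5.38 and 5.75 CPM in normal glucose and 3.35, 3.74 and 3.58 CPM in high glucose. Gmnn changed by -0.76 on the log2 scale (edgeR adjusted P value 0.00045). Inhibitor and target thus both fell, and the per kb ratio of Cdt1 to Gmnn was 0.456 ± 0.0505 in normal glucose and 0.482 ± 0.102 in high glucose, with overlapping samples (a ratio chosen after its values were seen). Dtl, which directs CDT1 to degradation in S phase, changed by -0.52 (edgeR adjusted P value 0.0031).

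Of 12 genes of helicase activation and origin firing, 7 were called lower, beside 14.5% of all genes tested, and 5 did not pass. Their median log2 fold change was -0.41. Dbf4, the regulatory subunit of DDK, changed by -0.81 (edgeR adjusted P value 2.9e-05), Gins1, a subunit of the GINS complex, by -0.80 (0.00098), and Ticrr, which brings TOPBP1 to origins, by -0.79 (0.00021). The catalytic partner of Dbf4, Cdc7, was picked out after its values were seen. It had 7.60, 8.48 and 7.53 CPM in normal glucose and 9.53, 8.66 and 9.40 CPM in high glucose. Its log2 fold change was 0.22 (edgeR adjusted P value 0.057), and it passed the threshold in 3 of the 18 alternatives. On leaving out a sample, the edgeR adjusted P value ran from 0.034 (without normal glucose replicate 2) to 0.23 (without high glucose replicate 1). Under scaling by library size alone the log2 fold change of Cdc7 was 0.11 (edgeR adjusted P value 0.34). Every high glucose sample of Cdc7 lay above every normal glucose sample, a pattern that 4782 of the 19015 genes tested had. The direction of Cdc7 was opposite to that of Dbf4. Of 28 replication fork genes, 19 were called lower, with a median log2 fold change of -0.34, beside the 14.5% of all genes called lower. The largest falls there were in Prim1, the primase catalytic subunit, at -0.81 (edgeR adjusted P value 0.00017), in Pole, the leading strand polymerase, at -0.79 (0.0008), and in Fen1, the flap nuclease of lagging strand processing, at -0.65 (0.00071).

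**Figure D4:**
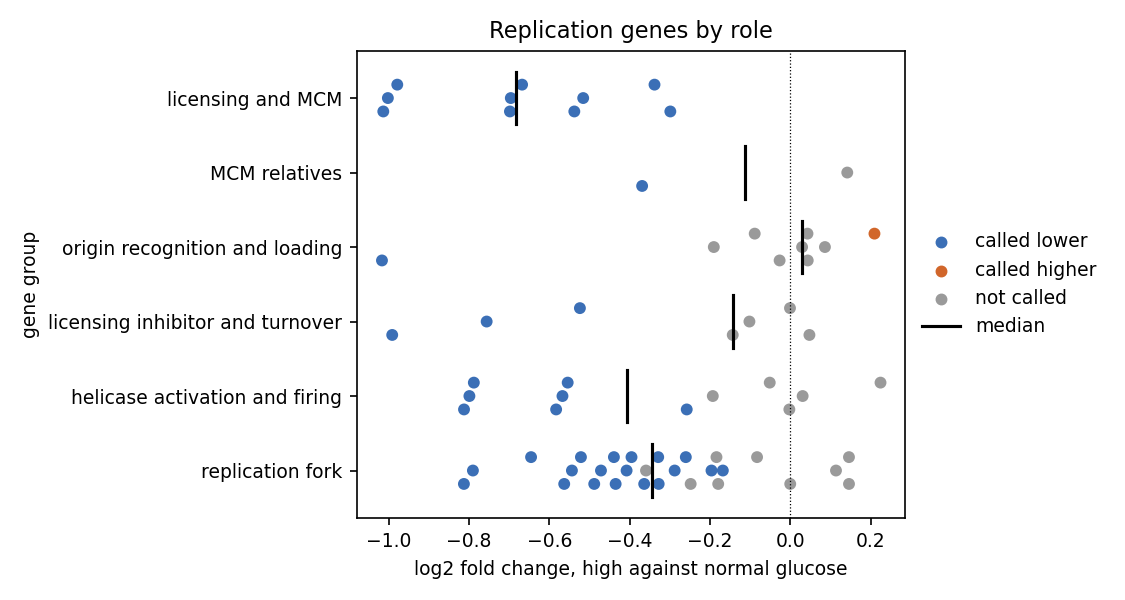
Log2 fold change, high against normal glucose, of each tested gene in 6 groups of replication genes, coloured by its call in the edgeR test, with a bar at each group's median. All 10 licensing and MCM genes were called lower, while 7 of 9 origin recognition and loading genes were not called.

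The genes whose pattern over the 6 samples lay closest to that of the ring were sought among 12432 genes by the root mean square distance from the mean centred log2 CPM of Mcm2 to Mcm7. Rrm1, the large subunit of ribonucleotide reductase, was the closest at 0.019. It was followed by Mmp19, a matrix metalloproteinase (0.0205), Rftn1, a lipid raft protein (0.0215), and Pgam1, a glycolytic enzyme (0.0226). The fifth was Ftl2-ps at 0.028, a ferritin light chain pseudogene whose counts are uncertain because it may share reads with its parent gene. Their log2 fold changes ran from -0.58 for Pgam1 to -0.54 for Rftn1. With 6 samples in 2 groups, this measure mainly weighs the size of the difference between the groups.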

How the data were processed

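Poly(A) RNA was sequenced from 3 normal glucose and 3 high glucose samples. The deposited file holds counts per gene, not normalized. Per the labels and methods, the authors used Trimmomatic for trimming, HISAT2 for alignment to GRCm38 and StringTie for quantification (versions not given in the sources used here). The count columns were matched to samples by name. Low genes were dropped by filterByExpr of edgeR 4.0.16 (min.count 10, min.total.count 15), and the rest were scaled by TMM and tested with the quasi-likelihood test in R 4.3.3 on all 6 samples, at a Benjamini-Hochberg adjusted P value under 0.05 and with no minimum fold change. Shares of the ring used a two-sided exact permutation test (scipy 1.17.1). Alternatives included DESeq2 1.42.0, other scalings and filters, GC and length offsets (mgcv 1.9.3) and leaving out each sample.

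Members and lists were chosen with earlier results of these data known. Named were all members, their neighbours within 1000 bp and overlapping genes, the 3 largest falls and any gene called higher in each replication list, and the 5 genes nearest the ring profile. Positions and exon lengths came from GENCODE M21. Other exceptions are named as chosen after their values were seen. Replicates of a group differed by more than sampling noise (chi-square per degree of freedom at least 9.03), and the biological coefficient of variation was 8.44%.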

Additional observations from a re-analysis of the deposited data

How the results depend on the processing

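The log2 fold changes of the 10 licensing and MCM genes kept their direction and stayed past the threshold in all 180 fits (18 alternatives for each gene). The ranges ran from -1.12 to -0.97 for Mcm5, from -1.13 to -0.98 for Mcm10, from -0.41 to -0.29 for Mcm4 and from -0.78 to -0.55 for Cdt1, and the highest adjusted P value was 0.012, for Mcm4. Scaling by library size alone moved the median of all genes by -0.12, and lower genes then made up 72.9% of calls instead of 46.2% (56.5% under upper quartile scaling). Relative to the median of all genes under that scaling, Mcm5 changed by -1.01 and Mcm4 by -0.30 on the log2 scale. Replicate numbers left no visible pairing in the values (correlations of deviations -0.0248, 0.00377 and 0.0127, with 2 of 6 samples correlating best with their own number). Such values cannot show whether samples of the same number shared a pool of cells or a culture day. With the replicate number as a block, Mcm5 had a log2 fold change of -1.0, Mcm10 one of -1.02 and Mcm4 one of -0.30, all past the threshold, and 2418 genes were called lower and 2909 higher, against 2757 and 3212 without it. Cops6 lost its call when the block was joined to removal of the GC and length trend (edgeR adjusted P value 0.051), and Ufd1 was called lower under scaling by library size alone (0.03).

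The lists of few calls moved. Origin recognition and loading had 2 genes called lower under RLE, upper quartile and library size scaling, a minimum of 1 CPM, DESeq2, halved counts and removal of the GC and length trend, and 0 called higher under upper quartile and library size scaling and without a filter on low counts. Leaving out 1 sample gave 1 to 2 lower and 0 to 1 higher. Helicase activation and firing had 1 called higher under robust fitting and with the GC and length trend removed, and 0 to 1 on leaving out a sample. On leaving out a sample, replication fork genes had 0 to 1 called higher and MCM relatives 0 to 1 called lower. The share of Mcm2 in the ring changed sign without normal glucose replicate 2 (0.0332 points) or 3 (0.0873 points), within a range from -0.507 to 0.0873 points over single samples left out. The cause of these shifts was not tested.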
